A study of Homo sapiens with 12 samples.

Results

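The genes described here are 49 neighbours on the long arm of chromosome 20, bands q11 to q12, which run from NCOA6 to CHD6 over 6.9 Mb (chr20:34714774-41618377, RefSeq gene positions on GRCh38.p14). They are 49 of the 27814 named genes in the count table. The interval was chosen from the difference between BRD8 KO-labelled and parental cells in DMSO, where its genes lay mostly below parental, and the members were then taken by name and position. The DMSO difference is therefore described here without a test. The median difference of the interval in neratinib was also known when the members were proposed, so the neratinib libraries are separate libraries but not a blind repeat.

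RNA was measured in BT474, an established hormone receptor-positive breast cancer line with HER2 amplification. The 12 libraries form 4 groups of 3: parental cells in DMSO, the solvent control, KO-labelled cells in DMSO, and either genotype after neratinib at 200 nM for 4 h. Neratinib blocks HER2 and its kinase relatives covalently, and BRD8 carries a bromodomain and belongs to the EP400-TIP60 histone acetyltransferase complex. The labels do not say whether the KO-labelled cells were 1 clone or a pool, or whether replicates were separate cultures. The p-values then reflect only the spread between these libraries, which may be technical. DNA was not measured here.

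Total counts ranged from 32471198 to 44726160 per library. BRD8 mRNA, the check of the genotype labels, was at 64.1 ± 0.706 CPM (counts relative to the library total after TMM scaling, mean ± SD, n = 3) in parental DMSO libraries and 67.4 ± 1.39 CPM in those labelled KO. In neratinib it was at 235.6 ± 5.23 and 156.1 ± 2.44 CPM. BRD8 mRNA was thus not lower in the libraries labelled KO in DMSO, and an edit that leaves the mRNA level intact would not be seen in these counts. All 11 luminal markers were above 1 CPM in every group, with DMSO sums of 17591 to 17787 CPM (parental) and 18662 to 18977 CPM (KO-labelled). None of 5 blood markers reached 1 CPM in every group, and their sum was at most 1.58 CPM. Of 5 basal or mesenchymal markers, 2 did. In DMSO their list summed to 25.4 to 26.0 CPM (parental) and 36.1 to 40.8 CPM (KO-labelled), and in neratinib to 46.8 to 47.7 and 73.6 to 76.0 CPM. The endothelial list, in which VWF but not PECAM1 passed 1 CPM, summed to 11.935 to 12.028, 32.5 to 33.4, 14.2 to 15.1 and 35.8 to 40.1 CPM in the same order. The fibroblast list, in which COL1A1 alone passed, summed to 69.7 to 75.8, 79.7 to 84.2, 89.1 to 92.5 and 112.3 to 116.2 CPM. The mesenchymal, endothelial and fibroblast sums were higher in KO-labelled libraries, and their part in the block's difference was not tested. In bulk RNA, fewer cells of a type and less RNA per cell cannot be told apart.

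The interval is gene-dense and holds genes of unrelated function. Among them are the tyrosine kinase SRC, which relays signals from growth factor receptors and integrins, the phospholipase PLCG1, which receptor kinases such as those of the ErbB family phosphorylate, the DNA topoisomerase TOP1, and housekeeping enzymes of glycosylation, splicing and mitochondria. The long arm of chromosome 20 is often gained in breast cancer.

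Of the 49 genes, 42 had enough counts to be tested. The other 7 were PROCR (the endothelial protein C receptor, at most 8 counts in any library), MYL9 (a myosin light chain, at most 12), TGM2 (a protein cross-linking enzyme, at most 5), PPP1R16B and EMILIN3 (at most 1 each), and BPI and LBP, lipopolysaccharide-binding proteins with 0 counts in all 12 libraries. TGM2 had 1, 5 and 1 counts in parental DMSO, 0 in each KO-labelled DMSO library, 1, 0 and 2 in parental neratinib and 0, 0 and 1 in KO-labelled neratinib libraries. A further 3 members, TLDC2, SAMHD1 and NNAT, were tested at under 1 CPM, which leaves 39 at or above it. The block as a whole took 0.42192% to 0.42488% of all counts in parental DMSO and 0.35064% to 0.35251% in KO-labelled DMSO libraries. In neratinib the shares were 0.40907% to 0.41745% and 0.33224% to 0.3373%. The genotypes did not overlap in either treatment.

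The genotype difference was not uniform along the block. It was a mosaic of genes near the parental level and genes well below it, and the switches fell between members next in order. Genes that are not members lay between some of them. In DMSO, 40 of 42 tested members had a log2 fold change (KO-labelled over parental) below 0, against 49.8% of all 16208 genes tested, but only 23 were at -0.5 or below, against 12.3%. In 34 members every KO-labelled DMSO library lay below every parental one, against 36.3% of all genes. These shares come from the comparison that chose the block, and nothing is read from them. The median was -0.67, with a range from -2.32 for SRC to 0.28 for MMP24. The SD over the members was 0.59, no wider than the 0.64 of all 12364 protein-coding genes at 1 CPM or more. The standard errors of single well-expressed genes, such as 0.03 for RPN2, were far smaller than that spread.

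Sorted by position and divided at a log2 fold change of -0.5, a value set after the DMSO values were seen, the 39 members at 1 CPM or more formed 8 stretches, 4 near parental and 4 low. The first stretch, NCOA6 to CEP250 (7 genes, chr20:34714774-35519280), had a median of -0.14 and KO-labelled levels at a median of 90.7% of parental. The second, ERGIC3 and CPNE1, had a median of -0.90, or 54.2% of parental. These figures set a small low island beside a nearly parental run. The third, RBM12 to DLGAP4 (9 genes, to 36528633), returned to -0.11 and 93.0%, and its first gene overlaps CPNE1. The fourth, TGIF2 to BLCAP (8 genes, chr20:36573464-37527876), was the lowest of the stretches with more than 1 gene, at -1.22 and 42.9%. Over the next 0.5 Mb single genes alternated, with CTNNBL1 at -0.13, VSTM2L at -1.61 and TTI1 at -0.30. The eighth, RPRD1B to CHD6 (10 genes, chr20:38033746-41618377), was low throughout, at -1.09 and 47.0%. Overall the 18 genes of near-parental stretches ran from -0.42 to 0.28 and the 21 genes of low stretches from -2.32 to -0.57. The values nearest the dividing value on either side were -0.42 for RBM12 and -0.57 for FAM83D, so no member lay between them.

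**Figure D1:**
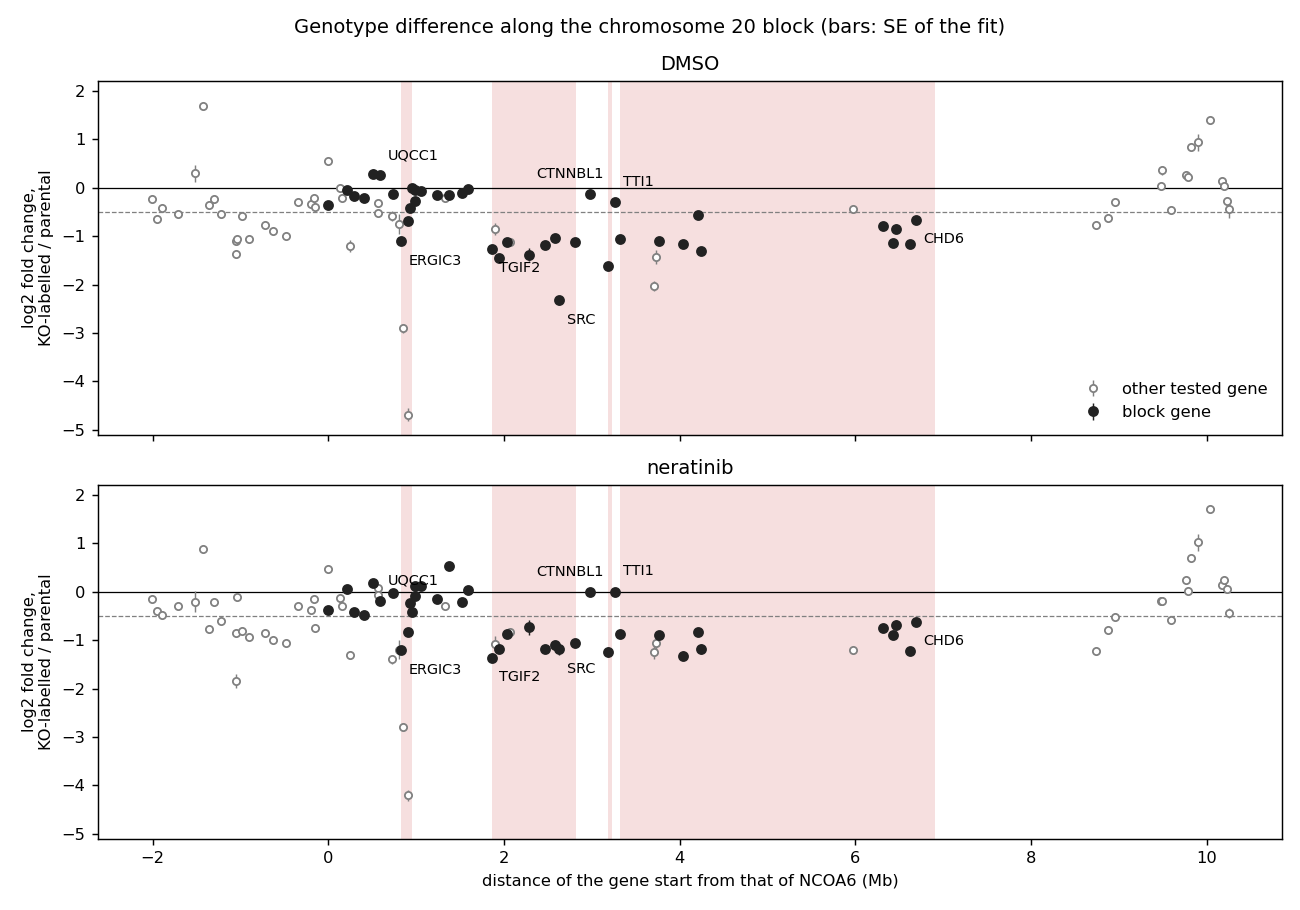
Log2 fold change of KO-labelled over parental cells (y axis) against the distance of each gene's start from that of NCOA6 in Mb (x axis), in DMSO (top) and neratinib (bottom). Filled points are block genes at 1 CPM or more, open points other tested genes, bars the standard error, shading the low stretches and the dashed line -0.5; SRC lies lowest among block genes in DMSO at -2.32 and CTNNBL1 and TTI1 lie above the line between low neighbours.

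The neratinib libraries, which played no part in placing the stretches, put all 39 genes on the same side of -0.5. The 21 low genes ran from -1.36 to -0.62 there, with a median of -1.07. The 18 near-parental genes ran from -0.47 to 0.52, with a median of -0.06. KO-labelled levels were a median of 47.7% of parental in the low stretches and 95.9% in the near-parental ones, against 45.9% and 91.0% in DMSO. Of the 42 tested members, 22 were at or below -0.5, against 12.6% of all genes. By the quasi-likelihood test of edgeR, Benjamini-Hochberg-adjusted across the 16208 genes, 31 members fell (background 36.9%) and 5 rose (background 34.7%) at an adjusted p below 0.05. A fall of at least 1.5-fold was called in 22 (background 9.06%), and in 32 every KO-labelled neratinib library lay below every parental one (background 37.6%). All 21 genes of the low stretches fell, and of the 18 near-parental genes 9 fell and 5 rose.

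Over the 39 genes the DMSO and neratinib differences, which share no library, had Pearson's r of 0.87 and Spearman's rho of 0.89 across genes. The 2 differences of a gene were a median of 0.16 apart on the log2 scale. All 12364 protein-coding genes at 1 CPM or more gave r of 0.84 and rho of 0.74, so the likeness between treatments was not confined to the block. Genes are not independent replicates, and the 2 contrasts share the KO-labelled and parental cells. The farthest apart was SRC, at -2.32 in DMSO and -1.19 in neratinib.

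**Figure D2:**
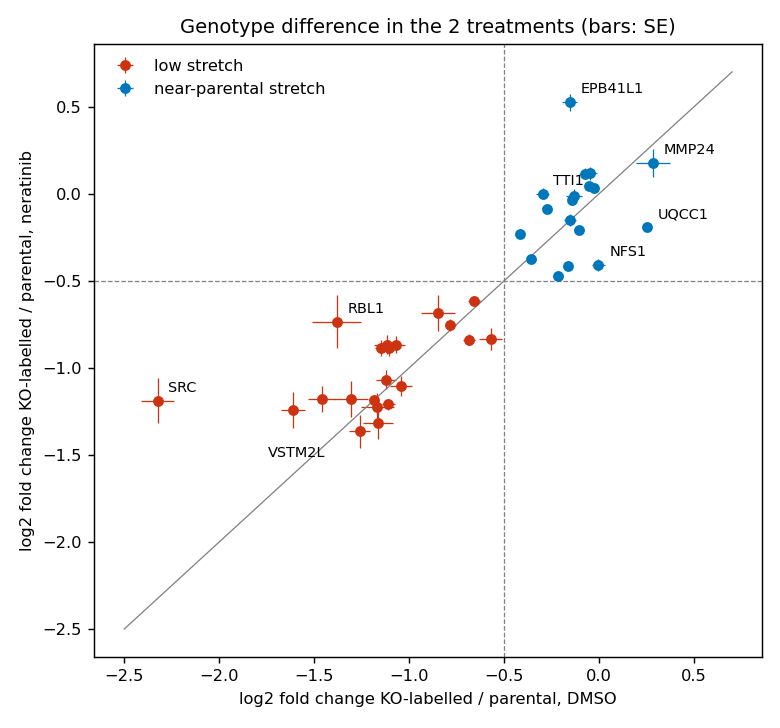
Log2 fold change of KO-labelled over parental cells in DMSO (x axis) and in neratinib (y axis) for the 39 genes at 1 CPM or more, coloured by stretch, with standard errors, the line of equality and dashed lines at -0.5. All 21 genes of low stretches lie in the lower left quadrant and all 18 of near-parental stretches in the upper right; SRC, RBL1 and EPB41L1 lie farthest above the line.

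Neighbours that start from the same short stretch of DNA show how abrupt a switch can be. TTI1, a subunit of the TTT complex that stabilises kinases such as mTOR and ATM, and RPRD1B, which binds the tail of RNA polymerase II, start head to head, with 289 bases between their starts. TTI1 was at 45.8, 43.0 and 44.9 CPM in parental DMSO, 36.0, 35.1 and 38.0 in KO-labelled DMSO, 48.8, 49.6 and 48.7 in parental neratinib and 48.6, 48.6 and 49.8 in KO-labelled neratinib libraries. RPRD1B was at 26.3, 27.9 and 27.2, then 13.7, 12.5 and 12.6, then 28.5, 26.8 and 28.2, then 15.3, 15.3 and 15.2 CPM in the same order. TTI1 libraries overlapped between genotypes in neratinib, while RPRD1B was well separated in both treatments. In neratinib the log2 difference was 0.00 for TTI1 (edgeR adjusted p = 0.996) and -0.87 for RPRD1B (edgeR adjusted p = 9.05e-21).

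A second head-to-head pair, NFS1 and ROMO1, has 52 bases between the starts and lies inside a near-parental stretch. NFS1 supplies sulfur for iron-sulfur clusters and ROMO1 is a small protein of the mitochondrial inner membrane. Their neratinib differences were -0.41 (edgeR adjusted p = 5.78e-14) and 0.12 (edgeR adjusted p = 0.00545), opposite in sign, and both were within 0.05 of 0 in DMSO. NFS1 and ROMO1 also share exon sequence on opposite strands, so their reads cannot be fully separated. CPNE1, a calcium-dependent membrane-binding protein, and RBM12, an RNA-binding protein, start at the same base and share exons, and their reads cannot be fully separated. CPNE1 was at -0.69 and RBM12 at -0.42 in DMSO, and at -0.84 and -0.23 in neratinib, so the boundary between these stretches rests on genes with shared sequence.

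The sequences of these shared start regions are printed because each serves a pair of genes whose differences diverge; CTNNBL1 and RPN2 are added as a near-parental and a low gene of the same neighbourhood. They are from RefSeq on GRCh38.p14, 5′ to 3′. The TTI1-RPRD1B interval is chr20:38033457-38033745 and the NFS1-ROMO1 interval chr20:35699353-35699404, both on the plus strand. The 120 bases before the common start of CPNE1 and RBM12 are chr20:35664901-35665020 on the minus strand, and those before CTNNBL1 and RPN2 are chr20:37693910-37694029 and chr20:37179210-37179329 on the plus strand. Capitals mark a match, on either strand, to any of 4 searched motifs, which were the TATA box TATAAA, the CCAAT box, the GC box GGGCGG and the ETS core CCGGAAG.
TTI1 and RPRD1B: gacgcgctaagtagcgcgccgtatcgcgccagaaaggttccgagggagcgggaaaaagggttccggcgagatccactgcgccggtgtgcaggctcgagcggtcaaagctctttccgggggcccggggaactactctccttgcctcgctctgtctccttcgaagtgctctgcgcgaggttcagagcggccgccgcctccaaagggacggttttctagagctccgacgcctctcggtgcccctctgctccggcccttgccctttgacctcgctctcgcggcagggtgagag
NFS1 and ROMO1: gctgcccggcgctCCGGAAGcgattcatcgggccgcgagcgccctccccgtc
CPNE1 and RBM12: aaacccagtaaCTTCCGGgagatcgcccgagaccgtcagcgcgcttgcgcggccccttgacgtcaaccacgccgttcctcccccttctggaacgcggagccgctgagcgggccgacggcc
CTNNBL1: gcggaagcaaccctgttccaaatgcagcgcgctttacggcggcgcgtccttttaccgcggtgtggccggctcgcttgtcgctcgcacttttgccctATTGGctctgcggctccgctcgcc
RPN2: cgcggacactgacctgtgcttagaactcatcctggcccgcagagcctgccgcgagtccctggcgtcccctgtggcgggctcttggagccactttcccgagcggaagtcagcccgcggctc
The TTI1-RPRD1B interval held none of the 4 motifs in 289 bases, with a GC content of 65.4% and 32 CpG dinucleotides. The NFS1-ROMO1 and CPNE1-RBM12 sequences each held 1 ETS core. CTNNBL1 held 1 CCAAT on the opposite strand, and RPN2 held no match in its 120 bases. All 5 were rich in G and C, at 65.0% to 76.9%.

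Windows of 300 bases around the start (250 before, 50 after) were given by RefSeq for 32 of the 49 members, 43 windows in all. Their median GC content was 65.7%, against 58.7% over 35116 windows of the genome, and they held a median of 31 CpG against 14. The windows of the genome cover 27305 genes without regard to expression in these cells, so the sets are not matched. The TATA box was in 4.65% of member windows (all windows 11.5%), CCAAT in 9.3% (34.6%), the GC box in 55.8% (15786 of all 35116 windows) and the ETS core in 27.9% (10.3%). Motifs were counted on both strands and separately, whether or not they overlapped. The low stretches (20 windows) and near-parental stretches (19 windows) differed little in composition, with a median GC of 65.8% and 67.3% and 30.5 and 32 CpG. The ETS core was in 4 of 20 low and 8 of 19 near-parental windows, and the GC box in 13 and 10. CPNE1 and RBM12 have the same window, which holds an ETS core and counts in both sets. These matches are letters in a window, and some genes have several windows.

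Among signalling genes, SRC had the lowest DMSO ratio of the block, though not the lowest in neratinib. SRC was at 11.6, 11.97 and 11.9 CPM in parental DMSO and 2.53, 2.32 and 2.21 in KO-labelled DMSO libraries. In neratinib it was at 3.10, 3.72 and 3.61 CPM in parental and 1.30, 1.65 and 1.54 in KO-labelled libraries. Parental DMSO libraries were the highest and KO-labelled neratinib libraries the lowest, with no overlap between any of the groups. KO-labelled cells held 19.96% of the parental level in DMSO (log2 -2.32, SE 0.09) and 43.9% in neratinib (log2 -1.19, edgeR adjusted p = 4.1e-11). PLCG1, which makes the second messengers diacylglycerol and inositol trisphosphate, was at 58.6, 58.8 and 59.3 CPM in parental and 26.9, 26.2 and 26.8 in KO-labelled DMSO libraries. In neratinib PLCG1 was at 27.4, 25.6 and 26.6 in parental and 13.996, 14.2 and 14.9 in KO-labelled libraries. The parental neratinib level thus lay at the KO-labelled DMSO level. The genotype difference was -1.15 in DMSO and -0.89 in neratinib (edgeR adjusted p = 7.28e-22).

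NDRG3, of the NDRG family, was at 13.8, 14.8 and 14.3 CPM in parental and 5.45, 5.07 and 5.06 in KO-labelled DMSO libraries, and at 13.9, 13.1 and 12.4 and 5.65, 6.45 and 5.20 in neratinib. Genotypes were separated in both treatments while the neratinib response of NDRG3 was not called in either genotype (-0.12 and 0.16), though it was under other scalings (-0.14 in parental cells with DESeq2-style size factors). RALGAPB, a subunit of the complex that inactivates Ral GTPases, was at -1.11 in DMSO and -0.89 in neratinib. By contrast, 3 signalling or scaffold genes of the near-parental stretches, TRPC4AP, EPB41L1 and DLGAP4, were at -0.16, -0.16 and -0.03 in DMSO. In neratinib TRPC4AP was lower, at -0.41 (edgeR adjusted p = 1.2e-23), and EPB41L1 higher, at 0.52 (edgeR adjusted p = 3e-13). DLGAP4, a scaffold protein, was at 111, 104 and 107 CPM in parental and 102, 107 and 107 in KO-labelled DMSO libraries, which overlapped. In neratinib it was at 90.2, 92.7 and 87.3 and 95.1, 89.6 and 91.7 CPM, again overlapping (log2 0.03, edgeR adjusted p = 0.313).

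Of the 9 chromatin, transcription and DNA topology genes, 6 were at -0.5 or below in DMSO (12.3% of all genes tested), a count from the comparison that chose the block, and 8 fell in neratinib (36.9% of all genes tested). TOP1, which relaxes DNA ahead of polymerases, was at 106, 104 and 103 CPM in parental and 59.4, 59.5 and 63.5 in KO-labelled DMSO libraries. In neratinib TOP1 was at 60.3, 64.5 and 62.8 and 38.1, 37.7 and 34.9 CPM. The genotypes did not overlap, and the difference was -0.78 in DMSO and -0.76 in neratinib (edgeR adjusted p = 4e-23). RBL1, the pocket protein p107 that binds E2F factors, was at 4.18, 4.51 and 4.07 and 1.60, 1.59 and 1.72 CPM in DMSO, and at 2.68, 1.93 and 2.52 and 1.78, 1.35 and 1.26 in neratinib. Its genotypes were close to each other in neratinib but did not overlap, at -1.38 (SE 0.13) and -0.74 (edgeR adjusted p = 3.42e-05). CHD6, a chromodomain helicase and the last gene of the block, was at 53.3, 51.8 and 50.8 and 33.0, 33.2 and 32.6 CPM in DMSO, and at 107, 103 and 106 and 66.7, 69.9 and 69.9 in neratinib. CHD6 kept nearly the same ratio, -0.66 and -0.62 (edgeR adjusted p = 8.25e-24), at a level that neratinib raised in both genotypes.

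NCOA6, a coactivator of nuclear receptors and the first gene of the block, was at 585, 562 and 563 CPM in parental and 440, 439 and 453 in KO-labelled DMSO libraries. In neratinib it was at 299, 303 and 299 and 229, 231 and 235 CPM. NCOA6 was separated without overlap but at a smaller ratio than CHD6, -0.36 and -0.37 (edgeR adjusted p = 1.31e-20). PHF20, a methyl-lysine reader, was the only gene of this group to rise in neratinib, by 0.12 (edgeR adjusted p = 0.000822). The homeobox repressor TGIF2 was at -1.26 and -1.36, the INO80 subunit ACTR5 at -1.17 and -1.32, and the repressor ZHX3 at -0.85 and -0.68.

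In the secretory pathway, RPN2, a subunit of the oligosaccharyltransferase that attaches N-glycans, was at 137, 140 and 140 CPM in parental and 62.1, 61.4 and 60.1 in KO-labelled DMSO libraries. In neratinib RPN2 was at 121, 115 and 115 and 50.9, 51.2 and 52.3 CPM. It held the same share of parental, 44.0% and 43.9%, in both treatments, at -1.18 (SE 0.03) and -1.19 (edgeR adjusted p = 1.92e-34). ERGIC3, which cycles between the endoplasmic reticulum and the Golgi, was at -1.11 and -1.21, and EDEM2, which trims mannose from misfolded glycoproteins, at -0.22 and -0.47. RPN2 and ERGIC3 are in different low stretches and EDEM2 in a near-parental one.

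The mitochondrial and metabolic genes were the role group nearest to parental, with a DMSO median of -0.05 over 5 genes. That ranking comes from the comparison that chose the block, and their neratinib median was -0.19. All but LPIN3 lie in near-parental stretches, so role and position cannot be told apart. UQCC1, an assembly factor of respiratory complex III, was at 185, 185 and 191 CPM in parental and 225, 223 and 221 in KO-labelled DMSO libraries. In neratinib the order turned, at 275, 267 and 270 in parental and 237, 234 and 241 in KO-labelled libraries. UQCC1 was thus higher in KO-labelled libraries in DMSO (0.25) and lower in neratinib (-0.19, edgeR adjusted p = 8.13e-12), without overlap in either. NFS1 was at 49.4, 51.3 and 50.2 and 51.8, 49.6 and 49.004 CPM in DMSO, which overlapped, and at 48.5, 44.8 and 45.7 and 35.6, 35.2 and 34.1 in neratinib, which did not. GSS, glutathione synthetase, was at -0.05 and 0.04. The phosphatidate phosphatase LPIN3, which lies in the last low stretch, was the exception of the group at -1.17 and -1.22.

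Of the 4 mitosis and centrosome genes, DSN1, a kinetochore protein, was at -1.12 and -0.87 and FAM83D, which anchors a kinase to the spindle, at -0.57 and -0.83. CEP250, which links centrioles, was at -0.14 and -0.03. Among 6 RNA processing genes only the helicase DHX35 (-1.31 and -1.18) and RPRD1B were low, while the splicing factors RBM39 (-0.28 and -0.09), AAR2 (-0.11 and -0.21) and CTNNBL1 (-0.13 and -0.01) stayed near parental. CTNNBL1 was at 26.8, 27.7 and 26.2 CPM in parental and 24.4, 23.6 and 25.9 in KO-labelled DMSO libraries, and its genotypes overlapped in neratinib, at 26.5, 27.1 and 26.0 and 26.9, 26.3 and 25.7. On either side of it, BLCAP was at -1.12 and -1.07 and VSTM2L, a protein with an immunoglobulin-like domain, at -1.61 and -1.24 (edgeR adjusted p = 1.55e-14). VSTM2L was at 20.6, 19.8 and 19.5 and 6.46, 7.21 and 5.80 CPM in DMSO, and at 5.63, 5.47 and 5.77 and 2.31, 2.36 and 2.46 in neratinib. Its KO-labelled libraries were the lower in both treatments. MANBAL was at -1.04 and -1.11, and the SCAN-domain gene SCAND1 at -0.15 and -0.15.

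The extracellular, contractile and innate immune genes were mostly silent, with 2 of 8 tested. MMP24, a membrane-anchored metalloproteinase whose exons overlap an antisense-strand gene, was at 4.53, 4.43 and 3.96 CPM in parental and 4.87, 5.09 and 5.89 in KO-labelled DMSO libraries. In neratinib MMP24 was at 6.07, 6.07 and 6.52 and 7.22, 6.90 and 7.01 CPM. KO-labelled libraries were higher in both treatments (0.28 and 0.18, edgeR adjusted p = 0.0433 in neratinib), and the neratinib call was lost with DESeq2 (0.19) and on leaving out any KO-labelled neratinib library or parental neratinib replicate 1 or 2. SAMHD1, which hydrolyses deoxynucleotides, was at 1.01, 0.886 and 1.06 and 1.17, 0.932 and 0.828 CPM in DMSO, and at 0.764, 0.544 and 0.727 and 1.09, 0.615 and 0.838 in neratinib. SAMHD1 libraries overlapped between genotypes throughout, at -0.00 (SE 0.21) and 0.27 (edgeR adjusted p = 0.307), although the gene lies inside the low stretch from TGIF2 to BLCAP. The imprinted gene NNAT, which shares exons with BLCAP, was at -0.93 and -2.11 and had at most 20 counts in a library.

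**Figure D3:**
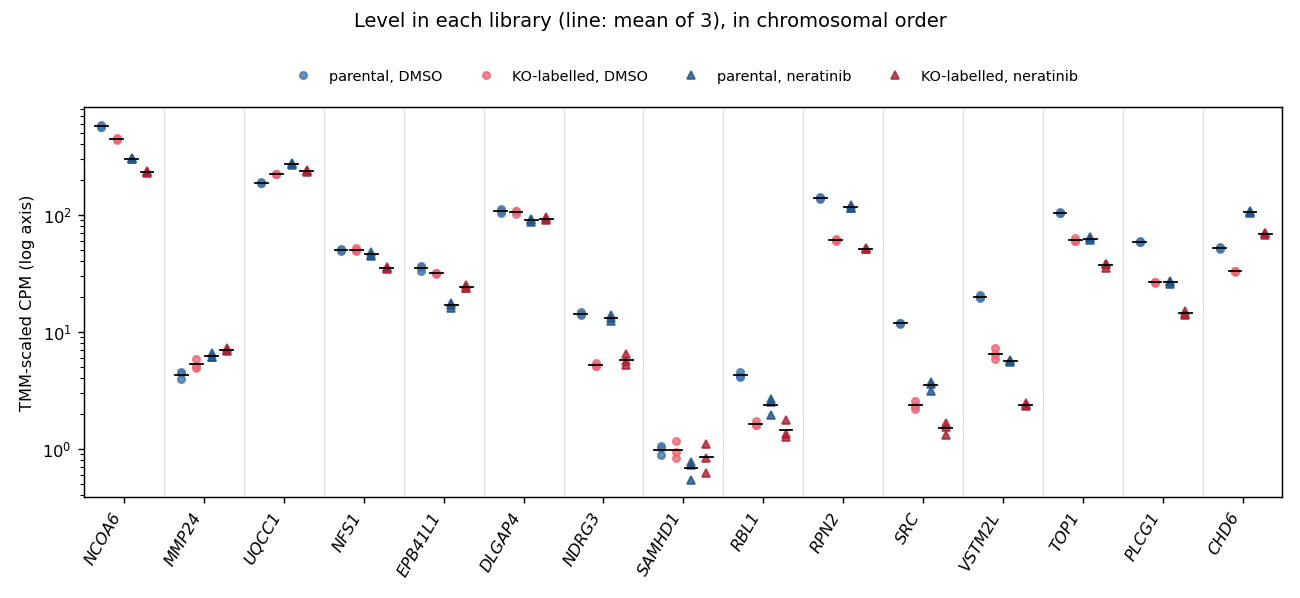
TMM-scaled CPM (log axis) of 15 block genes in chromosomal order, 1 point per library and a line at the mean of 3, with circles for DMSO and triangles for neratinib. The KO-labelled libraries lie below the parental ones in both treatments for RPN2, SRC, TOP1, PLCG1 and CHD6, and overlap them for DLGAP4 and SAMHD1.

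Compared per kilobase of exon, the near-parental genes were the more strongly expressed. In parental DMSO they had a median of 25.9 CPM per kb (0.976 to 291), against 4.82 (0.647 to 49.4) in the low stretches. In KO-labelled DMSO libraries the medians were 21.9 and 2.33. The ranges overlapped widely: RPN2, at 49.4 CPM per kb, was low, and MMP24, at 0.976, was not. Over 39 genes the log2 parental DMSO level per kb and the neratinib difference, which share no library, had Pearson's r of 0.32 and Spearman's rho of 0.34 across genes.

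**Figure D4:**
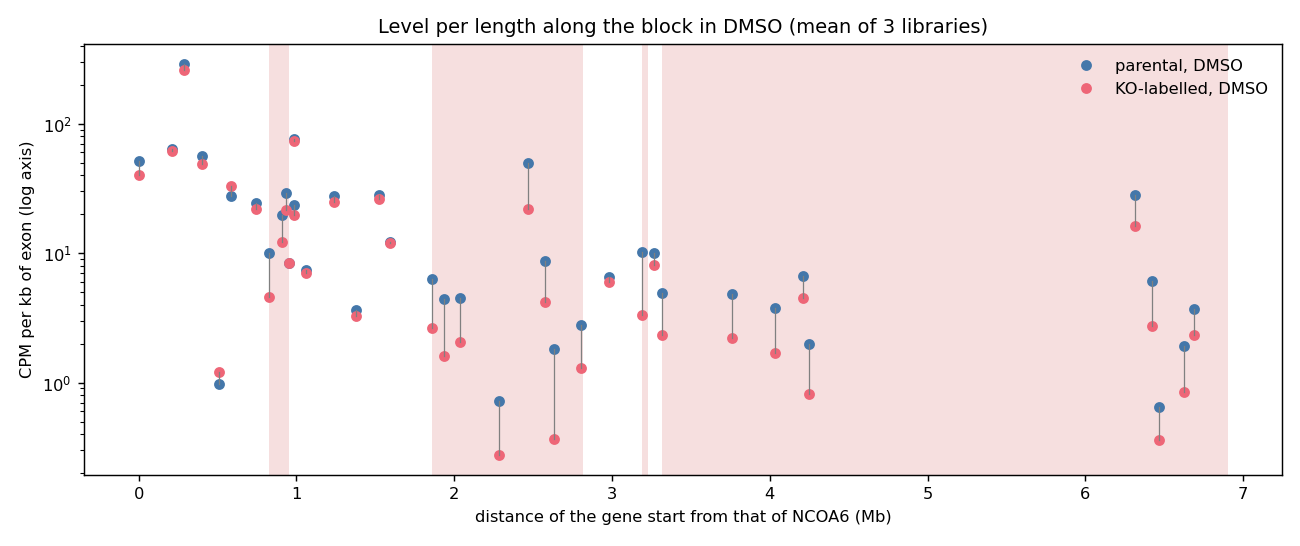
Mean level in CPM per kb of exon (log axis) of the 39 genes at 1 CPM or more against the distance of their start from that of NCOA6, in parental and KO-labelled DMSO libraries, with the low stretches shaded. The pairs of points lie close together outside the shading and mostly apart inside it, from TRPC4AP at 291 to ZHX3 at 0.647 CPM per kb in parental cells. The near-parental gene RBM12, which overlaps CPNE1, starts inside the shading.

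The members did not respond to neratinib as a block. In parental cells 23 of 42 fell (background 38.9%) and 13 rose (background 41.8%), and in KO-labelled cells 21 fell (background 38.4%) and 13 rose (background 38.9%). TGIF2 fell by 1.82 in parental and 1.92 in KO-labelled cells, VSTM2L fell by 1.83 and 1.46, while CHD6 rose by 1.02 and 1.06 and DSN1 by 0.71 and 0.96. The interaction, which is the KO-labelled response less the parental response on the log2 scale, was called higher in 17 members (background 21.5%) and lower in 7 (background 24.6%). All of these contrasts share libraries, and they are given side by side only. The neratinib responses and the interaction also use the DMSO libraries that chose the block. Choosing genes for a low DMSO difference tilts their interaction upward, so nothing is read from the interaction counts or their direction.

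Named by the size of the called interaction among members at 1 CPM or more, SRC was at 1.14 (edgeR adjusted p = 2.93e-07), EPB41L1 at 0.68 (edgeR adjusted p = 1.67e-12), RBL1 at 0.65 (edgeR adjusted p = 0.00847) and UQCC1 at -0.45 (edgeR adjusted p = 2.22e-17). SRC fell by 1.78 in parental and by 0.64 in KO-labelled cells. EPB41L1, a membrane-cytoskeleton adaptor, was at 35.4, 36.7 and 33.2 CPM in parental and 31.7, 31.7 and 31.1 in KO-labelled DMSO libraries, and at 16.9, 17.6 and 16.0 and 23.6, 23.8 and 25.1 in neratinib. Its KO-labelled libraries were the lower in DMSO and the higher in neratinib, with a neratinib difference of 0.52 (edgeR adjusted p = 3e-13), the largest rise of the block among members at 1 CPM or more. RBL1 fell by 0.82 in parental cells and was at -0.17 in KO-labelled cells (edgeR adjusted p = 0.35). Its interaction was 0.50 and no longer called without the KO-labelled neratinib replicate 1.

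**Figure D5:**
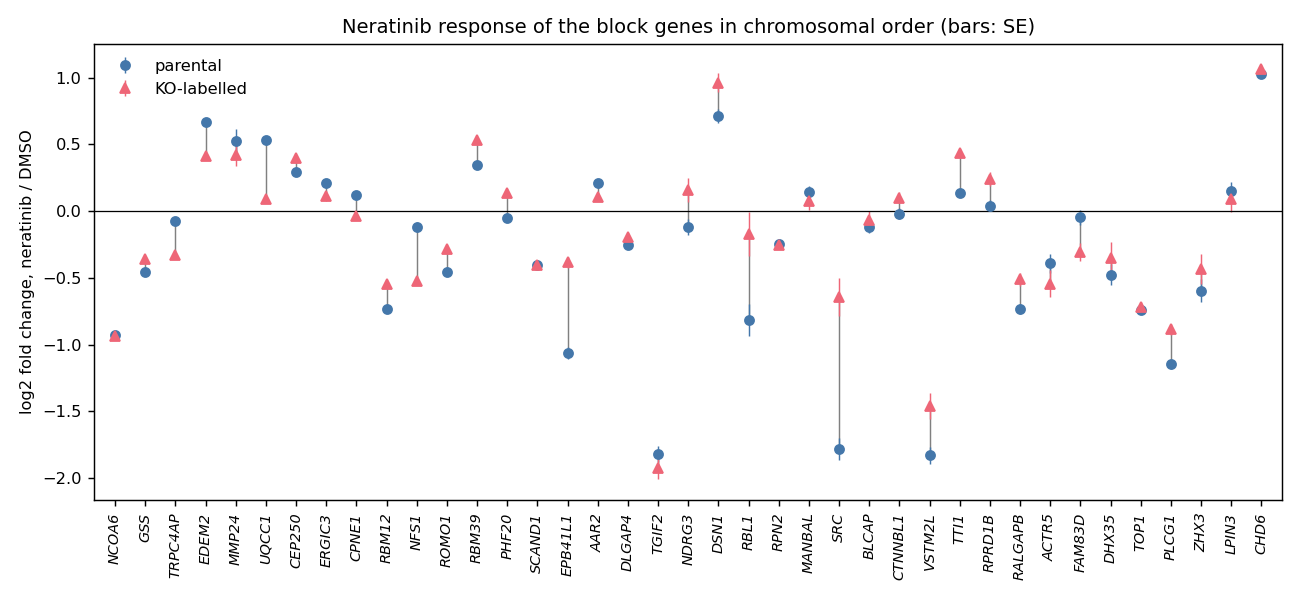
Log2 fold change of neratinib over DMSO (y axis) in parental (circles) and KO-labelled cells (triangles) for the 39 genes at 1 CPM or more in chromosomal order, with standard errors. Responses run from -1.92 for TGIF2 to 1.06 for CHD6, both in KO-labelled cells, and the gap between genotypes is largest for SRC.

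A further 18 tested genes inside the coordinates are not among the members, 15 of them at 1 CPM or more. Each of the 15 was assigned to the stretch that held its midpoint or, for a gene between stretches, to the nearest one. Of 7 in low stretches, 6 were at -0.5 or below in DMSO and 7 in neratinib (12.3% and 12.6% of all genes tested). Of 8 in or nearest to near-parental stretches, 4 were at or below -0.5 in DMSO and 3 in neratinib. Among them was MYH7B, a myosin heavy chain gene inside the first stretch, at -1.21 and -1.30. The near-parental stretches were therefore not free of low genes. The lowest were SPAG4, a nuclear envelope protein gene, at -4.69 and -4.20 (parental 9.20 CPM, KO-labelled 0.355 CPM in DMSO), FER1L4, a non-coding RNA, at -2.90 and -2.79, and the snoRNA host gene SNHG17 at -2.03 and -1.25. The highest were CNBD2, at 0.48 and about 0.1 CPM, the pseudogene HMGB3P1 at 0.35 with a mean of 0.226 CPM, and GGT7, at -0.00.

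The block's edges are set by the member list and not by a change in value. Just outside, PIGU was at -0.40 in DMSO and -0.75 in neratinib and TP53INP2 at 0.55 and 0.47 on the NCOA6 side, while SRSF6 was at -0.76 and -1.23 and IFT52 at -0.63 and -0.78 beyond CHD6. Just inside, NCOA6 was at -0.36 and CHD6 at -0.66 in DMSO. The spread of the differences depended on the measure. Over all 50 protein-coding genes at 1 CPM or more inside the coordinates, members and others, the interquartile range was 0.96 in DMSO and 1.04 in neratinib on the log2 scale. It was 0.53 and 0.46 over 147 such genes of chromosome 20 before the block, 0.48 and 0.55 over 138 after it, and 0.50 and 0.49 over all 12364. The SD, which extreme genes weigh on, was 0.80 and 0.73 inside, 0.66 and 0.63 before, 0.71 and 0.61 after, and 0.64 and 0.61 over all. The DMSO values chose the block, and these spreads are a description without a test.

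Partner genes of the members on other chromosomes were read from complexes and families listed for 13 members. Of 65 tested, 35 fell (background 35.6%) and 19 rose (background 36.0%) in DMSO, and 36 fell and 16 rose in neratinib (backgrounds 36.9% and 34.7%), by edgeR's test at an adjusted p below 0.05. Their medians were -0.09 and -0.14, and 9 of 65 were at or below -0.5 in DMSO, near the 12.3% of all genes tested. Of the 7 oligosaccharyltransferase genes listed as partners, which are not the whole complex, 6 fell and 1 rose in DMSO. Their median was -0.23, against -1.18 for RPN2. STT3A, a catalytic subunit, was at -1.23 in DMSO, and the alternative catalytic subunit STT3B at 0.27. In neratinib all 7 fell, with STT3A at -1.13 and STT3B at -0.09, so the opposite signs were seen in DMSO only. Of 4 tested SRC family kinases, 3 rose and 1 fell in DMSO. FYN was at 0.98 (1.74 CPM in parental and 3.43 in KO-labelled DMSO libraries) and LYN at 1.03 (0.818 and 1.68 CPM). FRK was at 0.61 and YES1 at -0.13 (132 and 121 CPM). In neratinib 2 of these kinases rose, FYN at 0.75 and FRK at 0.86. LYN, at -0.01, and YES1, at 0.02, were not called there. Of the pocket proteins, RB1 was at -0.57 and RBL2 at 0.12 in DMSO, and at -0.57 and -0.26 in neratinib. Of 13 INO80 genes 7 fell and 3 rose in DMSO, and of the 3 MIS12 complex genes 1 fell and 1 rose. In neratinib 7 INO80 genes fell and 5 rose, and 1 MIS12 complex gene fell and 0 rose.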

How the data were processed

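Bulk mRNA of the 12 BT474 libraries was analysed. The authors deposited whole-number read counts per gene, not normalized. GRCh38 (hg38), edgeR 3.40.2, STAR 2.7.9 and FastQC 0.11.7 are listed, without their roles, per the submitters' processing notes. How reads were assigned to genes, and whether by strand, is not given in the sources used here. Per the labels' protocols an Illumina TruSeq RNA v2 kit, which does not mark strand, gave single reads of 50 bases. Reads of overlapping genes therefore cannot be separated, and 27 members share exon sequence with another gene. Of 28395 lines, 581 had no symbol (0.0877% to 0.1245% of counts) and were left out. Of 27814 named genes, 27341 matched RefSeq (GRCh38.p14) by symbol, 286 by synonym and 187 not.

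Genes were filtered with filterByExpr (16208 left), scaled by TMM and fitted with edgeR 4.0.16 (R 4.3.3), a mean for each of 4 groups over all 12 libraries (8 residual degrees of freedom, common biological coefficient of variation 1.86%). Quasi-likelihood tests were adjusted by Benjamini-Hochberg over all genes tested and called below 0.05. The fit was tested on simulated data. Levels are CPM, or CPM per kb of merged GENCODE 29 exons. Replicates differed by more than sampling noise and none were identical. Library values are given for the 4 lowest and 4 highest members in DMSO at 1 CPM or more, the 4 largest called interactions at that level, the first and last member, and SRC, TOP1, PLCG1, TGM2, SAMHD1 and RPN2. Those of TTI1, RPRD1B and CTNNBL1 were chosen after their values were seen. Of other genes, the 2 nearest outside each end, the 3 lowest and 3 highest inside and the partner genes are named; MYH7B was singled out after its values were seen, and 1 gene inside the coordinates is not reported here. The members, gene lists and rules were chosen with earlier results of these data known. Alternatives were other scalings (size factors, library totals, genes off chromosome 20), other filters, DESeq2 1.42.0, a replicate block, and each library left out in turn.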

Additional observations from a re-analysis of the deposited data

Results flagged for a closer look

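The neratinib response differed between the genotypes, by edgeR's interaction test (Benjamini-Hochberg-adjusted across every gene tested), in 24 members. The interaction contains the DMSO difference that chose the block, so its calls and signs are not independent of that choice. The log2 interaction (KO-labelled response minus parental response) was above 0 in 17. In the near-parental stretches these were GSS at 0.10, CEP250 at 0.11, RBM12 at 0.19, ROMO1 at 0.17, RBM39 at 0.19, PHF20 at 0.19, EPB41L1 at 0.68 and TTI1 at 0.30. In the low stretches they were NDRG3 at 0.28, DSN1 at 0.25, RBL1 at 0.65, SRC at 1.14, VSTM2L at 0.37, RPRD1B at 0.20, RALGAPB at 0.22 and PLCG1 at 0.26. TLDC2, at 1.5015, was the largest and had at most 16 counts in a library. Leaving out KO-labelled neratinib replicate 2 gave 0.18 for NDRG3, and the call was also lost without KO-labelled DMSO replicate 2 or 3, parental DMSO replicate 2 or parental neratinib replicate 3 (0.25 to 0.26). The call of VSTM2L was lost without KO-labelled DMSO replicate 3 (0.30), and that of RBL1 without KO-labelled neratinib replicate 1 (0.50).

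The interaction was below 0 in 7 members. TRPC4AP was at -0.25, EDEM2 at -0.26, UQCC1 at -0.45, NFS1 at -0.41 and AAR2 at -0.10 in the near-parental stretches, and CPNE1 at -0.15 and FAM83D at -0.26 in the low ones. Over all genes tested 21.5% were called higher and 24.6% lower.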

How the results depend on the processing

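Of the values for the block and the partner genes, 256 recomputed values kept their call or stayed close to the reported value, 14 moved by more than the spread between replicates, and 1 count fell beyond 1.5 times, with no change of sign. Without the low-count filter the DMSO median moved from -0.67 to -0.58, the neratinib median from -0.65 to -0.70 and the SD of the DMSO differences from 0.59 to 1.16. At a mean of at least 5 CPM, where fewer members were tested, they were -0.47, -0.52 and 0.54, and 15 members fell with neratinib in parental cells in place of 23. The SD was 0.78 over all tested protein-coding genes inside the coordinates and 0.68 over members without shared exons. Leaving out a library gave DMSO medians of -0.68 to -0.63, neratinib medians of -0.68 to -0.61, SDs of 0.58 to 0.60, 22 to 23 members at or below -0.5 and 31 to 32 that fell in neratinib. The uncalled interactions of NCOA6 (-0.01) and RPN2 (-0.00) turned positive: with DESeq2's size factors (0.0098 and 0.020) and test (0.010 and 0.020), for RPN2 at 5 CPM (0.0017), and on leaving out a library (NCOA6 -0.032 to 0.018, RPN2 -0.018 to 0.044 over all 12 such fits). The replicate numbers did not pair the libraries: same-numbered deviations correlated at -0.115 to 0.08 over 18 pairs, and 8 of 36 matched best with their own number. With the replicate block the DMSO median was -0.67, the neratinib median -0.64, and 31 members fell in neratinib. Members with few counts, such as TLDC2, SAMHD1 and NNAT, are the least precise.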
